A study of Mus musculus with 2 samples.

Results

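The genes of the WWOX and TGF-beta SMAD pathway were examined in spleen cells that bind Zfra, Z(+), and in those that do not, Z(-). The group comprises 10 genes: the ligand Tgfb1, the receptors Tgfbr1 and Tgfbr2, the SMADs Smad2, Smad3, Smad4, Smad6 and Smad7, the corepressor Ski, and Wwox. They were chosen by name, as probes whose annotated gene symbol is one of the 10. All 10 were measured, by 11 of the array's 26423 probes and among 19084 named genes. Smad2 had 2 probes and each other gene had 1.

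Both fractions came from naïve NOD-SCID mice aged 6 to 8 weeks, a strain with the scid mutation in Prkdc that is without mature T and B lymphocytes. The cells were sorted directly after isolation of the spleens, with neither culture nor treatment. The design text gives the number 8, which can be read as 8 spleens, and whether animals were pooled is not stated in so many words. The study's other sorts separated cells with fluorescent Zfra, a short peptide that binds the membrane hyaluronidase Hyal-2, and the same is taken here from the names Z(+) and Z(-). Each fraction gave 1 RNA sample, hybridised on 2 technical arrays with Cy5 label, and the deposited value is 1 linear intensity per probe and fraction. Neither the sort nor the animals were replicated, so no difference below carries a test or a p-value.

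TGF-beta is secreted in a latent form and, once released, brings together a type II receptor (TGFBR2) and a type I receptor (TGFBR1). The type I receptor phosphorylates SMAD2 and SMAD3, which join SMAD4 and enter the nucleus. SMAD6 and SMAD7 block these steps, and their genes are themselves switched on by SMAD signaling as a feedback, while SKI binds the SMAD complex and represses its targets. WWOX carries WW domains and a short-chain dehydrogenase/reductase domain, and the study places it in a membrane complex with Hyal-2 and SMAD4. In the spleen, TGF-beta is known to restrain NK cells and to shape macrophages. RNA shows neither the phosphorylation of these proteins nor their binding to each other.

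Between Z(+) and Z(-), the ligand and both receptors had higher intensities in Z(+), Smad3 and Smad4 lay close to no difference, and both inhibitory SMADs had lower intensities. Smad2 was higher by 0.23 on the log2 scale as the mean of 2 probes that gave 0.09 and 0.37. Ski and Wwox lay close to no difference. None of the 10 genes differed by 2-fold, the size taken here as a call. Of all 19084 genes, 8.71% differed at least 2-fold, so a count of 0 among 10 is not a result about these genes. The median log2 difference, Z(+) minus Z(-), was 0.07 over the 10 genes and 0.03 over all genes, and 6 of the 10 were higher and 4 lower in Z(+) by any amount, as were 10324 and 8726 of all genes. At 1.5-fold, 3 of the 10 were past the limit, Tgfb1 upward and Smad6 and Smad7 downward, beside 21.4% of all genes (7.89% higher and 13.5% lower).

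**Figure D1:**
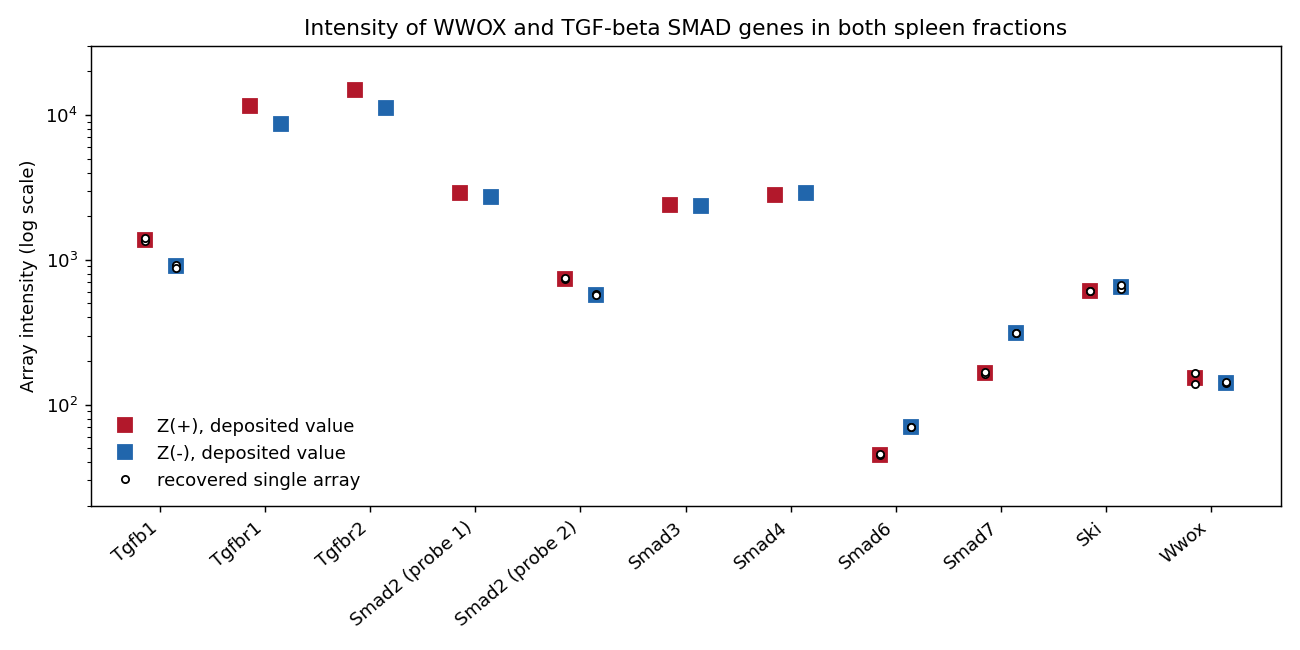
Intensity (log scale) of each of the 11 probes of the 10 genes in Z(+) (red) and Z(-) (blue), with 1 deposited value per fraction (squares) and the 2 technical arrays where they could be recovered (small circles). Tgfb1, Tgfbr1 and Tgfbr2 sit higher in Z(+), Smad6 and Smad7 sit lower, and the array circles of Wwox overlap between the fractions.

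The promoters of the ligand and of its receptors are shown first, since these 3 genes had the largest upward differences of the group. Each line gives the 170 bases before the annotated start from RefSeq, build GRCm38.p6, 5′ to 3′ on the gene's strand, with the SMAD-binding box CAGAC or its reverse complement GTCTG in capitals. The windows are Tgfb1, chr7:25686832-25687001 (plus strand), Tgfbr1, chr4:47353052-47353221 (plus strand), and Tgfbr2, chr9:116175364-116175533 (minus strand).
Tgfb1: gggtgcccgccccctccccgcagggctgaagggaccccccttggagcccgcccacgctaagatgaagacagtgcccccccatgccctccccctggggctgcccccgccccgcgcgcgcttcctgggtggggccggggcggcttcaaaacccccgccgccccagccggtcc
Tgfbr1: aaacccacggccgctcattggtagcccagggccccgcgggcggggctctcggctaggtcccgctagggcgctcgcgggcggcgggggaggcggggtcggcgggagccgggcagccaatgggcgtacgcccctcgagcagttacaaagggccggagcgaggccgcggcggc
Tgfbr2: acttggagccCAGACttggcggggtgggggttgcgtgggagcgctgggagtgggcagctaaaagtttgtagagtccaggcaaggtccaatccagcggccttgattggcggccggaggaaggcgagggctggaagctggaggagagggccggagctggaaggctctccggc
The RefSeq promoter table matched 6 of the 10 genes with 7 windows, Tgfbr1 having a second one further along the gene. In the 250 bases before the start, the box was found in 2 of the 7 windows, that of Tgfbr2, 160 bases before the start, and the second of Tgfbr1. Over all 32851 windows of the table, 42.2% held it, so a match was common among all genes. The upstream 250 bases of the first 3 windows were rich in G and C, with 75.2% in Tgfb1, 74.8% in Tgfbr1 and 58.4% in Tgfbr2, beside a median of 52.4% over all windows. These letters are a description and no binding was measured.

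Tgfb1 encodes the TGF-beta isoform that leukocytes mainly make. It had intensities of 1379.65 in Z(+), against 904 in Z(-), a log2 difference of 0.61 and 1.53-fold. The deposited value is the mean of both technical arrays, and below an intensity of 2000 each array's own value was recovered from it. For Tgfb1 the arrays gave 1345 and 1415 in Z(+), against 926 and 882 in Z(-), without overlap. Where several splits fitted a value, the pair within 1.5-fold was taken, which keeps such arrays close. How far this choice set the lack of overlap for Tgfb1 was not tested. Over the 4 pairings of a single Z(+) array with a single Z(-) array, the log2 difference ran between 0.54 and 0.68. The technical SD of a log2 difference at this brightness, taken from the scatter between the arrays over all probes of like intensity, was 0.06. Of all genes, 7.18% were at least this far higher in Z(+), so differences of this size were common between the fractions. The arrays measure the hybridization alone, and the spread between sorts is not known.

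Tgfbr1, the type I receptor kinase, had intensities of 11603 in Z(+), against 8618 in Z(-), a log2 difference of 0.43. Tgfbr2, the type II receptor that binds the ligand first, had 14912 in Z(+) and 11225 in Z(-), a log2 difference of 0.41. The receptor genes thus differed by nearly the same factor, 1.35-fold and 1.33-fold, and in the same direction as their ligand. Single arrays could not be recovered above an intensity of 2000. The technical SD of probes between 1000 and 2000, 0.05, was taken for brighter ones. Of all genes, 13.9% were at least as far higher as Tgfbr1 and 15.1% as Tgfbr2.

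Smad2 and Smad3 encode the SMADs that the type I receptor phosphorylates. The brighter probe of Smad2 had 2891 in Z(+) and 2715 in Z(-), a log2 difference of 0.09. The dimmer probe had 742 in Z(+) and 575 in Z(-), a log2 difference of 0.37. Its arrays, split with the same preference for close pairs, gave 739.7 and 744.5 in Z(+), against 576 and 575 in Z(-). The probes of Smad2 thus agreed in direction and differed in size by 0.28 on the log2 scale, and their mean was 0.23. Such gaps were usual on this array: over the 2104 genes with exactly 2 probes the gap had a median of 0.37 and a root mean square of 0.84, and 58.8% of these genes had a larger gap than Smad2. The other 9 genes rest on 1 probe each, and no second probe could be set beside it. A gap of the median size would be larger than the differences of Smad3, Smad4, Ski and Wwox and smaller than those of Tgfb1, Tgfbr1, Tgfbr2, Smad6 and Smad7. A gap of 0.84, the root mean square, would be larger than the difference of every member but Smad7 (-0.93). The differences of Tgfb1 (0.61), Tgfbr1, Tgfbr2 and Smad6 (-0.64) are thus within the size of gaps seen between probes of 1 gene. These gaps were taken over genes of every intensity, dim ones included, and were not matched to the brightness of each member.

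Smad3 had intensities of 2390.3 in Z(+), against 2339.8 in Z(-), a log2 difference of 0.03. Smad4, the partner that SMAD2 and SMAD3 share, had 2814 in Z(+) and 2901 in Z(-), a log2 difference of -0.04. For Smad3 and Smad4 the difference was smaller than the technical SD of 0.05, and that of Smad4 was positive when each sample was centred on its median (0.0002) or quantile-normalised (0.04). Their genes therefore could not be ordered between the fractions.

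Smad6 and Smad7, the inhibitory SMADs, were the members with the lowest log2 differences. Smad7 had intensities of 165 in Z(+), against 314 in Z(-), a log2 difference of -0.93 and 1.90-fold. Its technical arrays gave 162 and 169 in Z(+), against 315 and 314 in Z(-), with no overlap. The 4 pairings ran between -0.96 and -0.90. Lack of overlap occurred at small differences too, as for Ski (-0.10). The share of all genes whose arrays also did not overlap is not given here. The technical SD at this brightness was 0.18, and 7.21% of all genes were at least this far lower. With Tgfb1 higher and Smad7 lower, the ligand and this inhibitor lay on opposite sides of no difference. Smad7 is the member nearest to the 2-fold limit, and no member lay outside it.

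Smad6 had 45.0 in Z(+) and 70.0 in Z(-), a log2 difference of -0.64 and 1.55-fold. Its arrays gave 44.5 and 45.5 in Z(+), against 70.3 and 69.7 in Z(-), and did not overlap. Smad6 was the only member below the median gene's intensity of 121, where arrays scatter more: the technical SD was 0.34 there, and with a pseudocount of 50 the difference was -0.34. Of all genes, 12.2% were at least this far lower. Smad3 and Smad6 are next to each other among the protein-coding genes of chromosome 9 in RefSeq, yet their log2 differences were 0.03 and -0.64.

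Ski, the corepressor that holds SMAD complexes inactive, had 609 in Z(+) and 653 in Z(-), a log2 difference of -0.10. Its arrays gave 612 and 607 in Z(+), against 633 and 673 in Z(-). They did not overlap, but the difference was little more than the technical SD of 0.07. Wwox had 152 in Z(+) and 142 in Z(-), a log2 difference of 0.10 and 1.07-fold. Its arrays gave 138 and 166 in Z(+), against 141 and 143 in Z(-). The arrays of Z(-) lay between those of Z(+), so the sign of the Wwox difference turned with the array chosen. The pairings ran between -0.05 and 0.24. The arrays of Z(+) also differed over genes in general. The median difference of 16163 genes was -0.03 in both pairings with array A of Z(+), against 0.10 and 0.11 with array B. Hyal2, which encodes the membrane partner of WWOX and the receptor of Zfra, was no member and had 670.1 in Z(+) and 608 in Z(-), a log2 difference of 0.14.

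**Figure D2:**
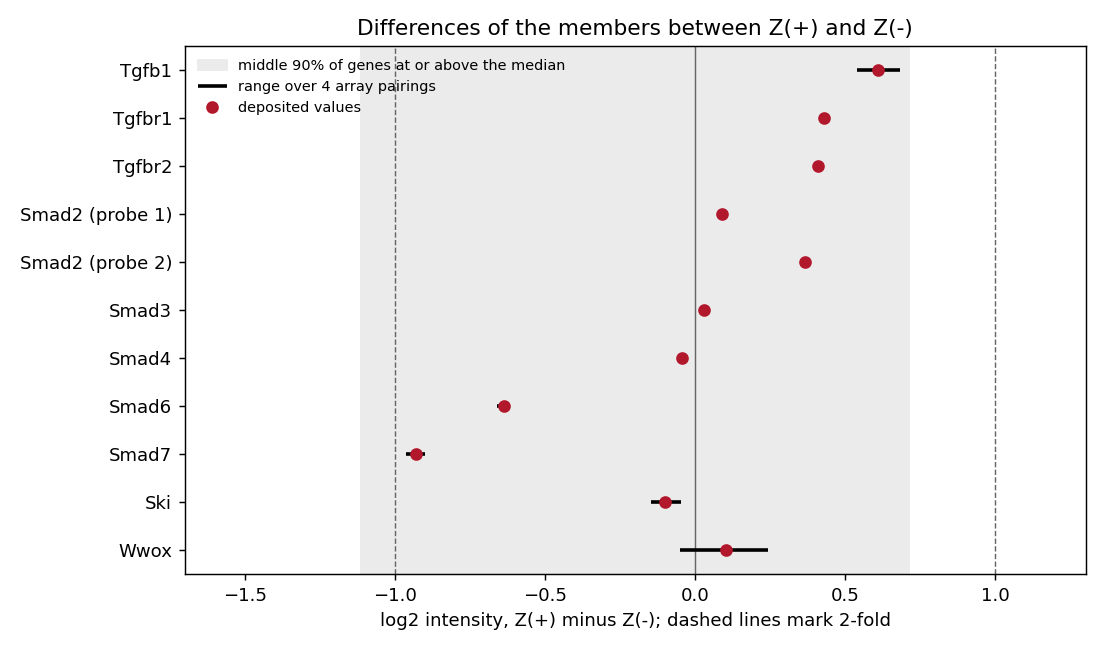
Log2 intensity difference, Z(+) minus Z(-), of each of the 11 probes (points), with the range over the 4 pairings of single arrays (bars) where the arrays were recovered. The grey band runs between the 5th and 95th percentiles of the 9542 genes at or above the median, -1.11 and 0.71, and every member lies inside it and inside the dashed 2-fold lines.

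Markers of several cell types differed between the fractions, beside 2.44% of all genes higher and 6.27% lower by 2-fold. Of 10 NK cell markers, 8 were lower in Z(+) by 2-fold or more. The intensities of all 10 summed to 3757 in Z(+), against 51371 in Z(-), of which Gzma alone gave 25763. Of 10 macrophage markers, 8 were at least 2-fold higher, with a sum of 75733 in Z(+), against 40872 in Z(-). Klre1, an NK cell lectin receptor, had 309 in Z(+) and 7437 in Z(-), and Mertk, a macrophage receptor for dying cells, had 663 in Z(+) and 131 in Z(-). The shifts of Klre1 and Mertk, in opposite directions, were larger than that of any of the 10 members. Not every marker shifted as far: the macrophage markers Adgre1 and Cd68 had log2 differences of 0.68 and 0.06. The NK cell marker Eomes went the other way from its list, with 898 in Z(+) and 661 in Z(-), a log2 difference of 0.44. Of 8 mast cell and basophil markers, 7 were at least 2-fold lower and 8 lower by any amount (summed intensity 1609 in Z(+) and 32016 in Z(-)). For 8 neutrophil markers these counts were 4 and 7 (163793 in Z(+) and 255017 in Z(-)). For 8 T cell markers they were 5 and 7 (2071 in Z(+) and 12588 in Z(-)). Other lists shifted less. Of 6 monocyte markers, 0 were past 2-fold, with a median log2 difference of -0.07. Of 7 B cell markers and of 6 megakaryocyte and platelet markers, 1 each was at least 2-fold lower. Of 7 stromal markers, 1 was at least 2-fold higher and 1 at least 2-fold lower. No marker gene was at 0, though Ncr1, a defining NK cell receptor, was dim at 5.52 in Z(+) and 5.50 in Z(-). In RNA of a whole fraction, fewer cells of a type and less RNA per cell cannot be told apart. The part of these shifts in the differences of Tgfb1, its receptors and Smad7 was not tested.

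**Figure D3:**
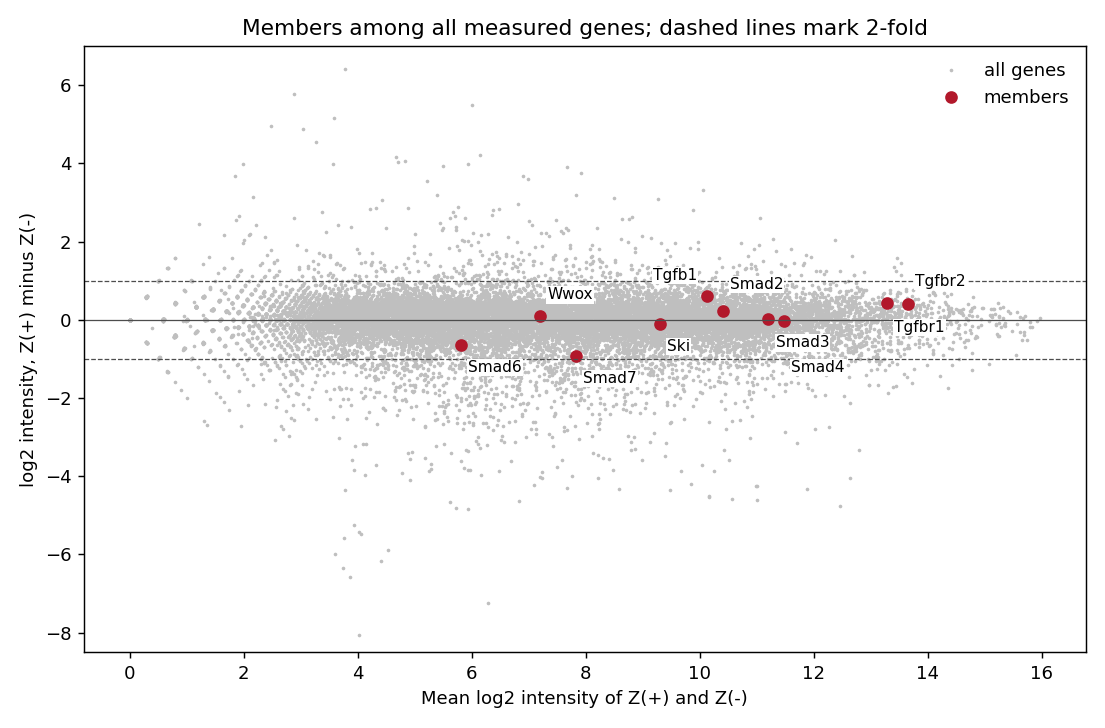
Log2 intensity difference, Z(+) minus Z(-), against the mean log2 intensity of both fractions for all 19084 genes (grey) and the 10 members (red), with dashed lines at 2-fold. The members lie within the main cloud, between -0.93 for Smad7 and 0.61 for Tgfb1, and all but Smad6 lie at or above the median gene.

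The wider pathway was described by 7 lists that hold 105 measured genes, members included. Of these, 5 were higher in Z(+) by 2-fold or more and 8 were lower, beside 2.44% higher and 6.27% lower of all genes. The median log2 difference over the 105 genes was 0.09. Each list below stands against the same background of all genes: 2.44% higher and 6.27% lower by 2-fold, 10324 of 19084 higher by any amount, and a median of 0.03. Counted over the 66 of them at or above the median intensity of all genes, 2 were higher and 5 lower, beside 2.12% and 6.14% of such genes and 8.26% in either direction. In all, 12.4% of the 105 genes were past 2-fold, and whether this share differs from the 8.71% of all genes was not tested.

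Among 16 genes of TGF-beta ligands, their latency and their activation, 2 were at least 2-fold higher in Z(+), none was at least 2-fold lower, and 12 were higher by any amount, with a median log2 difference of 0.17. Mmp14, a membrane metalloprotease that can release TGF-beta from its latent complex, had intensities of 4515 in Z(+), against 1686 in Z(-), a log2 difference of 1.42. Itgav, the integrin alpha v chain that activates latent TGF-beta, had 5667 in Z(+) and 3501 in Z(-), a log2 difference of 0.70. Nrros, which holds latent TGF-beta on myeloid cells, had 12144 in Z(+) and 8739.5 in Z(-), a log2 difference of 0.47. These 3 genes lay on the same side as Tgfb1. Thbs1, whose protein also activates latent TGF-beta, and Ltbp3, which binds the latent form, lay on the other side with -0.45 and -0.54. Dcn, a matrix proteoglycan that binds TGF-beta, was higher by 2.69-fold on average over its probes, which gave 0.97 and 1.88 on the log2 scale, and was dim at 138 in Z(+) and 51.3 in Z(-). It was within 2-fold with a pseudocount of 50 (0.82) and with its brightest probe alone (0.97). The other ligands lay in no common direction, Tgfb2 with log2 differences of 0.13 and 0.76 from its probes and Tgfb3 with -0.50.

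Among 14 receptors and co-receptors of the family, 2 were higher in Z(+) by 2-fold or more and 2 were lower, while 11 were higher by any amount, with a median log2 difference of 0.42. Acvrl1, the type I receptor ALK1 best known from endothelium, had 974 in Z(+) and 3605 in Z(-), a log2 difference of -1.89, the largest downward of this list. The other 3 past 2-fold were dimmer than the median gene. Acvr1b, a type I receptor of activin, had 153 in Z(+) and 34.0 in Z(-). Acvr2a, an activin type II receptor, had 146 in Z(+) and 64.9 in Z(-). Bmpr1a, a BMP type I receptor, had 55.0 in Z(+) and 126 in Z(-). These 3 receptors bind activins or BMPs rather than TGF-beta itself. With a pseudocount of 50, Acvr2a (0.77) and Bmpr1a (-0.74) were within 2-fold, and Acvr1b had 1.27 in place of 2.16. Of 8 endothelial markers, 1 was at least 2-fold higher and 1 at least 2-fold lower, and their part in the Acvrl1 difference was not tested.

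All 8 SMADs were within 2-fold. Outside the members, Smad1 had a log2 difference of 0.24 and Smad5 of 0.13, both SMADs of the BMP branch, and Smad9 was dim with 0.01. Among 21 regulators and partners of SMADs, none was at least 2-fold higher and 2 were at least 2-fold lower, as means over probes. Ppm1a had a mean of 0.84 from probes that gave 0.17 and 1.52, the latter past 2-fold. The probes of Runx1 lay on opposite sides, with -0.52 and 0.98. Runx3, a transcription factor of cytotoxic lymphocytes that works with SMADs, had 467 in Z(+) and 1287 in Z(-), a log2 difference of -1.46. It lay on the same side as the NK cell markers, whose part in it was not tested. Pmepa1, the other one, was too dim to be read, at 1.49 in Z(+) and 2.99 in Z(-). The 3 brightest of the list, Tgif1, Sp1 and Strap, had log2 differences of 0.38, 0.47 and 0.17. Fkbp1a, whose protein keeps the type I receptor silent, was below the limit with 2277 in Z(+) and 1213 in Z(-), a log2 difference of 0.91.

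The next list held 18 genes known as targets of TGF-beta or BMP in other cells, Smad6 and Smad7 among them. None was at least 2-fold higher in Z(+) and 4 were at least 2-fold lower. By any amount 7 were higher and 11 lower, with a median log2 difference of -0.29. Itgae, the integrin chain CD103, had 402 in Z(+) and 961 in Z(-), a log2 difference of -1.26. Myc, a growth regulator that TGF-beta represses in many cells, had 206 in Z(+) and 457 in Z(-), a log2 difference of -1.15. A pseudocount of 50 made it -0.99. Col1a1, a collagen chain of stromal cells, was lower and dim, at 31.6 in Z(+) and 142 in Z(-), with a log2 difference of -2.17 that a pseudocount of 50 made -1.23. The fourth was Pmepa1, which was past 2-fold in the lower direction but had -0.04 with that pseudocount. Id1, a target of BMP signaling, lay just inside the limit with 1254 in Z(+) and 2504 in Z(-). Id3 had a log2 difference of -0.69. The bright targets Tgfbi, Id2 and Junb had log2 differences of 0.24, 0.31 and 0.08, and Skil and Klf10 of 0.52 and 0.56, so the list did not move one way. The direction of a target's change under TGF-beta differs between genes and cells, and the list gives no reading of how active the pathway was.

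Of 17 BMP, activin and GDF ligands and their inhibitors, 16 were within 2-fold. Inhba, which encodes the activin A chain, had 109 in Z(+) and 370.4 in Z(-), a log2 difference of -1.76. Bmp2 and Bmp4 lay close to no difference, with 0.01 and 0.19. Chrd, the next brightest of the list, had 288 in Z(+) and 334 in Z(-), a log2 difference of -0.21. Of 15 measured genes whose proteins bind WWOX or its WW domain relatives, Hyal2 among them, 14 were within 2-fold. Itch, a ubiquitin ligase with WW domains of its own, had 3126 in Z(+) and 1164 in Z(-), a log2 difference of 1.43. Jun and Wbp2 had log2 differences of -0.10 and -0.01. The median of this list was 0.01, with 8 genes higher and 7 lower by any amount, between -0.54 and 1.43.

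**Figure D4:**
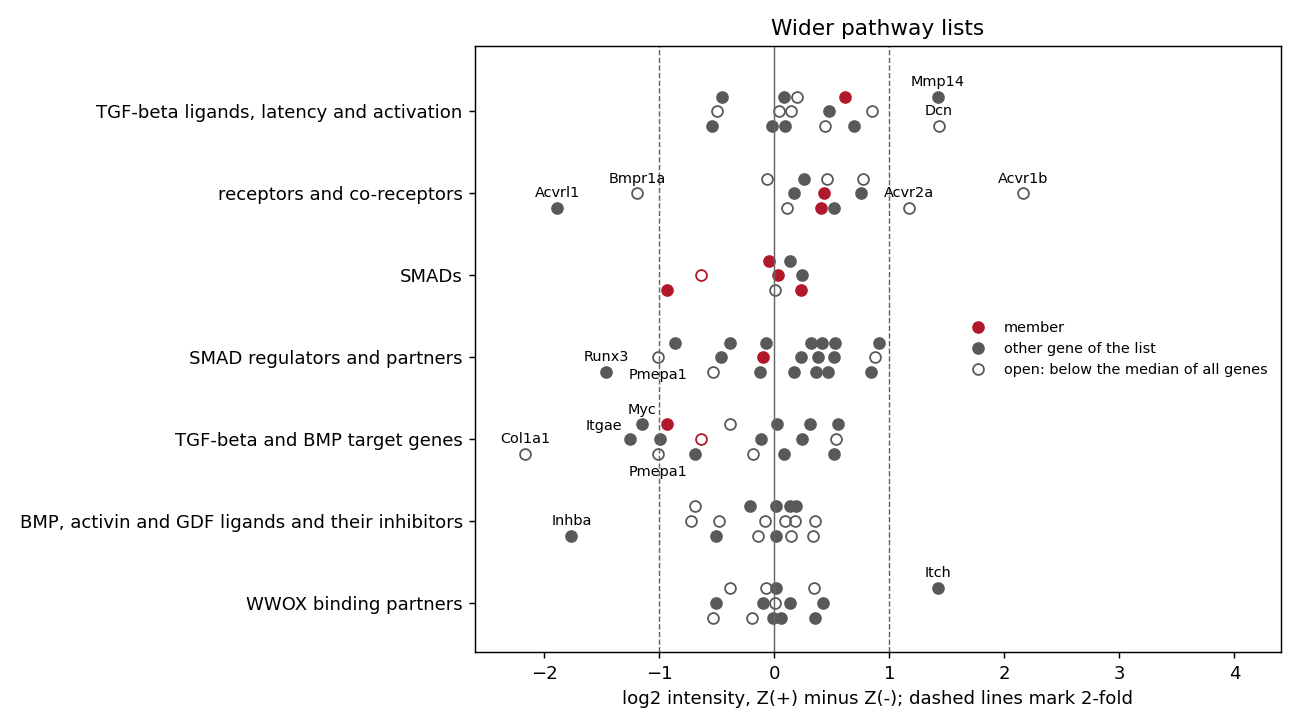
Log2 intensity difference, Z(+) minus Z(-), of each measured gene in the 7 pathway lists, with the members in red, other genes in grey and genes below the median of all genes as open circles. Genes past the dashed 2-fold lines are named, and the 8 SMADs all lie between the lines.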

How the data were processed

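The authors amplified the RNA of each fraction, labelled it with Cy5, hybridised it to a 1-colour mouse oligonucleotide array and deposited 1 linear intensity per probe and sample. Scanner software, background correction and scaling were not given in the sources used here. Detection calls were not used. The highest intensities, 65296 in Z(+) and 65528 in Z(-), lie near the scanner's limit, and 37 probes in each sample were at or below 0. The median intensity was 85.8 in Z(+) and 88.5 in Z(-).

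Values under 1 were set to 1 and converted to log2. Of 26423 probes, 21876 had 1 gene symbol, 0 several and 4547 none. Gene IDs of 21825 matched RefSeq (GRCm38.p6). Probes of a gene were averaged, and 2-fold was the size called. Shares of all genes are given with the members, the markers and the pathway lists. The array names no build, so probe positions are not given.

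Each intensity below 2000 was split into 2 technical arrays, as the mean of whole numbers times factors of 0.968 and 1.03 in Z(+) and 0.990 and 1.01 in Z(-). This worked for 99.6% of such probes in Z(+) and 99.9% in Z(-). Tested on simulated data, 100% of the splits found were right, but of values without this structure up to 43.6% were split too, mostly above 400. The simulated pairs lay closer together than many real dim ones. In Z(+), the 95th percentile of the fold between arrays was 2.67 at intensities of 1 to 20 and 2.30 at 20 to 100. The check therefore does not cover arrays that lie far apart. For ambiguous values, the pair within 1.5-fold was taken. This choice keeps the arrays of such values close, so the technical SD of bright probes may be too low. The technical SD is the root mean square of the array log2 ratios per intensity class, scaled to the mean of 2 arrays and summed over both samples. The number of arrays limits the precision.

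The members and lists were chosen with earlier results of these data known. Named genes are the members, Hyal2, each pathway list gene past 2-fold and the 3 brightest of each pathway list. From the marker lists they are genes among the 3 largest differences or dim in both fractions. Adgre1, Cd68, Eomes and Gzma were added later. Tgfb2, Tgfb3, Thbs1, Ltbp3, Smad1, Smad5, Smad9, Fkbp1a, Ppm1a, Runx1, Id1, Id3, Skil, Klf10, Maf and Clec3a were added after their values were seen. The 12 alternatives were 3 scalings, the brightest probe, a pseudocount of 50, bright genes only, limits of 1.5-fold and 4-fold, and 4 array pairings. Calculations used statsmodels 0.14.6 (loess, span 0.3), pandas 2.3.3 and numpy 2.4.6 in Python 3.11.15, and plots matplotlib 3.10.9.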

Additional observations from a re-analysis of the deposited data

How the results depend on the processing

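No paired analysis was possible because each fraction has 1 sample. Counts and medians of the members and of the wider pathway were recomputed under 12 alternatives, and 55 values moved by less than the technical spread or 1.5 times while 17 moved further. Under every alternative with a 2-fold limit no member was called. With a limit of 1.5-fold, 1 member was higher and 2 were lower, and of the wider pathway 13 were higher and 15 lower. With a limit of 4-fold, 1 pathway gene was higher and 1 lower. With a pseudocount of 50, 3 pathway genes were higher and 5 lower, and with genes at or above the median alone 2 were higher and 5 lower. The median of the members was 0.13 after quantile normalization. Over the 5 members whose arrays could all be recovered it was -0.048 and -0.14 for array A of Z(+) against arrays A and B of Z(-), and -0.060 and -0.15 for array B of Z(+), since these 5 leave out the receptors and Smad2 to Smad4. In the pairings with array A of Z(-), 3 pathway genes of 78 were higher with array A of Z(+) and 2 with array B. Tgfb1 (0.58 to 0.67), Tgfbr1 (0.43 to 0.53), Tgfbr2 (0.41 to 0.49), Smad6 (-0.71 to -0.34) and Smad7 (-0.95 to -0.76) had these ranges over the alternatives other than the pairings. Of those, only the 3 scalings could turn the direction of a gene with 1 probe, and they turned none of these 5 genes. Smad4 turned sign in 2 of the 3 scalings and Wwox in 2 of the 4 pairings. Beyond this, the precision is limited by 1 sample per fraction.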

Other observations

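Wwox is flanked in RefSeq by Clec3a and Maf among the protein-coding genes of chromosome 8. Maf, which encodes the transcription factor c-Maf of macrophages and lymphocytes, had intensities of 579.9 in Z(+), against 259.5 in Z(-), a log2 difference of 1.16. Clec3a had 679.9 in Z(+) and 604 in Z(-), a log2 difference of 0.17, near the 0.10 of Wwox. Each of the 3 genes had 1 probe.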
